A study of Mus musculus with 6 samples.

Results

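The 10 genes described here are the core circadian clock genes Arntl, Clock, Per1, Per2, Per3, Cry1, Cry2, Nr1d1, Nr1d2 and Dbp. They were taken by gene symbol, joined to the Ensembl identifiers of the deposited tables, so they are 10 of 37620 genes in all. The rule is a list of names and uses no measured value, although the list was drawn up with earlier results of these data known. Each of the 10 passed the filter on low counts and was tested.

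All libraries came from BFU-E (burst-forming units, erythroid), early committed progenitors of red blood cells, taken from E14.5 fetal livers of 129/SvImJ mice. Mature, multipotent and myeloid cells were depleted, and c-kit positive cells among the 10% lowest in CD71 were sorted. Of the 3 groups, 1 was untreated, 1 received 100 nM dexamethasone (Dex), a synthetic glucocorticoid, and 1 received 100 nM Dex with 10 µM GW7647, which activates the nuclear receptor PPARα. The labels name no mutation in any group, and erythropoietin (2 U/mL), IGF-1 (40 ng/mL) and stem cell factor (100 ng/mL) were in the medium. Each group had 2 libraries, and nothing in the labels says whether these came from separate cultures or litters, so the p-values measure the spread between libraries, which may be technical. The labels give 12 h of treatment, whereas headers of 1 deposited table carry 36 h, and no time in culture is given for the untreated cells. The labels do not say at what hour of the day the cells were collected, and no group received GW7647 alone.

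The circadian clock is a feedback loop in gene expression that most cells of the body carry. The proteins of Arntl (BMAL1) and Clock bind E-box sequences and switch on the Per and Cry genes, whose proteins return to the nucleus and repress that activity. A linked loop runs through Nr1d1 and Nr1d2 (REV-ERBα and REV-ERBβ), which repress Arntl, and outputs such as Dbp pass the rhythm on. Glucocorticoids are known to reset clocks in peripheral tissues, and Per1 is a known target of their receptor. Each group was sampled at 1 time, so a change in the level of a transcript and a shift in the phase of a rhythm cannot be told apart.

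The libraries held between 35970286 and 54174801 counts. Pearson correlations of log2 CPM (counts scaled by library size) across genes, which are not independent replicates, were 0.995 to 0.996 within groups. Known targets of the drugs were read as a check: Fkbp5, Tsc22d3 and Mt2, which the glucocorticoid receptor induces, were 3.06-fold, 2.53-fold and 43.9-fold higher with Dex (edgeR adjusted p = 6.36e-09, 6.46e-08 and 8.74e-10). Cpt1a and Hadh, fatty acid oxidation genes, were 2.89-fold and 2.64-fold higher when GW7647 was added to Dex (adjusted p = 2.13e-07 and 1.75e-06). Pdk4, another gene known to answer to PPARα, did not pass the filter, with 2 to 9 reads per library. The progenitor markers Kit and Gata1 had 4291 and 11930 normalized counts in untreated cells. Over 10 erythroid progenitor markers these means ran from 88.96 (Cd36) to 105000 (Tfrc). Over 10 erythroid maturation markers they ran from 14520 (Epb42) to 159600 (Slc4a1). Scaling by total counts instead of trimmed means shifted the median log2 difference over all genes by 0.13 for Dex against untreated cells and by 0.12 for Dex plus GW7647 against untreated cells. It turned the calls of all genes with Dex from 3606 higher and 3677 lower into 5451 and 2584, and with both drugs from 3486 and 3539 into 5480 and 2719.

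Most of the clock genes differed between Dex and untreated cells, and they differed in both directions. The untreated cells have no stated time in culture, so the drug and time in culture cannot be told apart. By role, both activators were higher with Dex, all Per genes were higher, the Cry genes went opposite ways, both REV-ERB genes were lower, and the output gene Dbp did not pass the test. In all, 9 of the 10 were called with edgeR, 6 higher and 3 lower. Of all 14125 genes tested, 51.6% were called, 25.5% higher and 26.0% lower, so a large share of called genes is common to the whole transcriptome in this comparison. The median log2 difference was 0.29 over the 10 clock genes and 0.01 over all genes tested. Scaling by total counts called 6 of them higher and 2 lower, and DESeq2 called 5 higher and 1 lower. Without untreated replicate 1 or 2, 7 of the 10 were called in all.

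**Figure D1:**
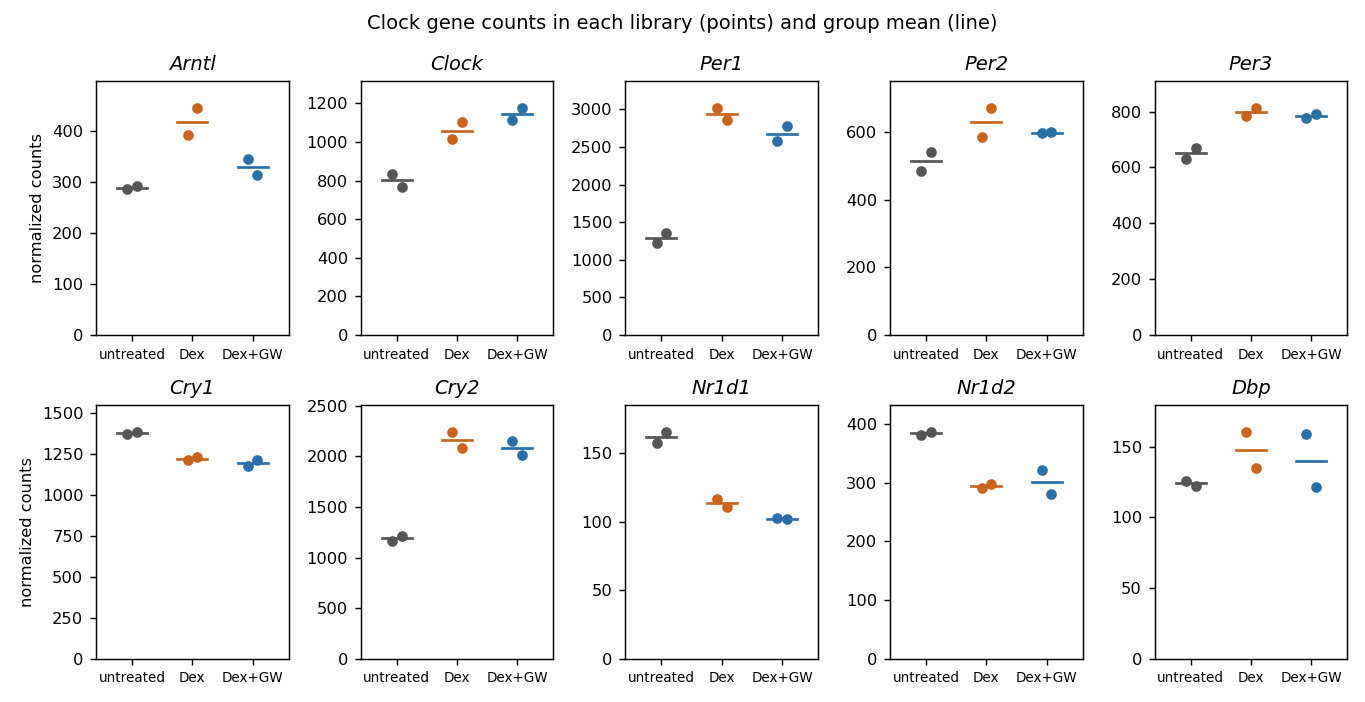
Normalized counts (vertical axis, from 0) of the 10 clock genes in the 6 libraries. Points are libraries, lines are means of 2 libraries, and Dex+GW stands for Dex plus GW7647. Per1 and Cry2 lie in separate ranges for untreated and treated cells, from 1227 and 1353 to 2577 or more for Per1 and from 1168 and 1215 to 2009 or more for Cry2.

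Per1, a repressor of the clock and a fast-responding one, showed the largest difference of the 10. Normalized counts of Per1 were 1227 and 1353 in untreated cells, 3013 and 2863 with Dex, and 2577 and 2775 with Dex plus GW7647. Every treated library lay above both untreated ones. The difference with Dex was 2.28-fold (log2 1.19 ± 0.06, SE, edgeR adjusted p = 2.92e-07), and Per1 was called in each of 13 alternative fits. Per2, its close paralog, had 485.3 and 542.3 normalized counts in untreated cells and 586.4 and 670.4 with Dex. The groups did not overlap, but they lay close, at 1.22-fold (log2 0.29 ± 0.09, adjusted p = 0.0226). Per2 was no longer called when untreated replicate 1 (adjusted p = 0.145) or Dex replicate 2 (0.143) was left out, nor under DESeq2 (0.0612), and over 13 alternatives the adjusted p ran from 0.0026 to 0.145. Per3, the third paralog, had 630.8 and 669.5 normalized counts in untreated and 783.2 and 812 in Dex libraries. Its difference was of the size of that of Per2 (1.23-fold, log2 0.29 ± 0.07, adjusted p = 0.00461) and was called in each of the 13 alternatives. Whether the Per genes differ from each other in their response was not tested.

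A promoter window of Per1 and that of Per3 carry recognition sequences of the clock within the 250 bases before their start sites. They are shown since both genes rose with Dex and hold a match upstream of the start site. Arntl, Clock and Cry2 also rose, with no match in those 250 bases, and a link between motifs and differences was not tested. The sequences are from RefSeq (GRCm38.p6, the reference strain, not 129/SvImJ), 5′ to 3′ on the strand of the gene, with matches in capitals. Per1 has 2 windows on the plus strand. The window shown, chr11:69098699-69098948, has 1 E-box, CACGTG, the site bound by the products of Clock and Arntl. The other, chr11:69099902-69100151, has no match. Per3 lies on the minus strand at chr4:151044666-151044915 and has 2 copies of TTATGTAA, a form of the D-box that DBP and its relatives bind.
Per1: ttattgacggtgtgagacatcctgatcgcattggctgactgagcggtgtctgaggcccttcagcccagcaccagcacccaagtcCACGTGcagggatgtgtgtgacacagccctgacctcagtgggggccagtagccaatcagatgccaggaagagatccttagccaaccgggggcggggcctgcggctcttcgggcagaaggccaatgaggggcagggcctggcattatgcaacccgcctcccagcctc
Per3: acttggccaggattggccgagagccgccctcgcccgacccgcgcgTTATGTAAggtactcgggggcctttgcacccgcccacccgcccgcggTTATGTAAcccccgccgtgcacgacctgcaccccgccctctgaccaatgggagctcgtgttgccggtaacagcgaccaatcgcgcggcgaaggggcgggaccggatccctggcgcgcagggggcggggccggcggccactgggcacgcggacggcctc

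The Cry genes, which encode the partners of PER in repression, went opposite ways. Cry2 had 1168 and 1215 normalized counts in untreated cells, 2241 and 2078 with Dex, and 2154 and 2009 with both drugs. All treated libraries lay far above the untreated ones, and the difference with Dex was 1.81-fold (log2 0.86 ± 0.06, adjusted p = 2.06e-06). It was called in each of 13 alternatives. Cry1 had 1373 and 1385 normalized counts in untreated, 1214 and 1230 in Dex, and 1177 and 1211 in libraries with both drugs. Here the libraries of a group were nearly equal, and those of treated cells lay slightly lower. Cry1 fell by 0.17 on the log2 scale with Dex (SE 0.05, adjusted p = 0.0203), the smallest change among the called members. That call is the least firm of the 9. It was lost under total count scaling (log2 -0.045, adjusted p = 0.493), DESeq2 (0.0738) and no filter (0.0749). It was also lost without untreated replicate 1 (adjusted p = 0.0624), untreated replicate 2 (0.0808) or Dex replicate 1 (0.0544), and its adjusted p over 13 alternatives ran from 0.0167 to 0.493.

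The promoters of this pair are shown for comparison, since the genes differed in opposite directions. Cry1 (minus strand, chr10:85185055-85185304, GRCm38.p6) has an E-box, in capitals. Cry2 (minus strand, chr2:92434070-92434319) has none of the motifs searched in these 250 bases, which says only that these letters are not in this window.
Cry1: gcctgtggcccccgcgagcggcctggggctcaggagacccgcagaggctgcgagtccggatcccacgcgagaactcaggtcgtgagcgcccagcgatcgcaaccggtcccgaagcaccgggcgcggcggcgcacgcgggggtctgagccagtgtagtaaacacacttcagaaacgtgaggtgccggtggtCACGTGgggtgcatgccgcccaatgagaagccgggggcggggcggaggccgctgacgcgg
Cry2: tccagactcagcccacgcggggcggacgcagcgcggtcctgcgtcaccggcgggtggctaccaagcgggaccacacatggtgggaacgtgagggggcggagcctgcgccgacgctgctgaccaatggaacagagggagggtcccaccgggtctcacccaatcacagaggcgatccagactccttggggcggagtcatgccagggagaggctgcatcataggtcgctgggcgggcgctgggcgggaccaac

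In RefSeq windows of 300 bases, from 250 before to 50 after a start site, motifs were searched on both strands. Windows were found for 9 of the 10 members (13 windows, since Per1, Arntl and Clock have several), the exception being Per2. The E-box CACGTG was in 2 of the 13, that of Cry1 and a window of Per1, against 7.15% of all 32851 windows. The D-box (TTATGTAA or TTACGTAA) was in 1, that of Per3, against 1.06%. TAGGTCA, the element of ROR and REV-ERB receptors, was in 1, a window of Arntl, past its start site, against 2.61%. The cAMP element TGACGTCA (1.79% of windows) and the glucocorticoid receptor core ACANNNTGT (6.85%) were in 0 of the 13. The TAGGTCA search takes in any overlap with longer receptor elements, and a match describes letters, not a bound site.

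Both activators were higher with Dex. Arntl, the factor without which the loop stops, had 286.1 and 292.5 normalized counts in untreated and 392 and 445.4 in Dex libraries. The groups were well apart, at 1.44-fold (log2 0.53 ± 0.10, adjusted p = 0.00158). Clock, its partner, had 832.5 and 767.8 normalized counts in untreated and 1013 and 1104 in Dex libraries. The difference was 1.32-fold (log2 0.40 ± 0.07, adjusted p = 0.00105). Both calls held in each of 13 alternatives.

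Both REV-ERB genes, which repress Arntl, were lower. Nr1d1 had 157.7 and 165.4 normalized counts in untreated and 116.5 and 110.6 in Dex libraries. The ranges were separate, and Nr1d1 fell by 0.51 on the log2 scale (SE 0.13, adjusted p = 0.00864). The call was lost under DESeq2 (adjusted p = 0.0635) and without untreated replicate 2 (0.0507), and its adjusted p ran from 0.00697 to 0.0635 over 13 alternatives. Nr1d2 had 381.4 and 386.2 normalized counts in untreated and 290.1 and 298.2 in Dex libraries. It fell by 0.38 (SE 0.10, adjusted p = 0.00802), a call that held in each of 13 alternatives. Dbp, a clock output of the PAR bZIP class, had 125.9 and 122.6 normalized counts in untreated and 160.5 and 135 in Dex libraries. It was not called (log2 0.25 ± 0.16, 95% interval -0.11 to 0.62, adjusted p = 0.226) and was called in 0 of 13 alternatives, whose adjusted p ran from 0.0744 to 0.645.

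Nr1d1 and Dbp were also the members with the fewest reads, 86 to 151 and 103 to 208 per library, and the members with the largest standard errors. Their exons overlap genes on the opposite strand in a later annotation (GENCODE M21), and whether reads were counted by strand is not given in the sources used here. Nr1d1 shares 263 bases, 8.5% of its exons, with Thra, a thyroid hormone receptor gene. Thra had 11701 reads in all 6 libraries together and a log2 difference of -0.05 ± 0.05 with Dex (adjusted p = 0.416). Dbp shares 539 bases, 18.0% of its exons, with Sphk2, a sphingosine kinase gene. Sphk2 had 13069 reads in all 6 libraries together and a log2 difference of 0.14 ± 0.09 (adjusted p = 0.194). Cry2 shares 295 bases with D930015M05Rik, which had 124 reads in all 6 libraries together. The part of shared reads in these values was not tested.

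**Figure D2:**
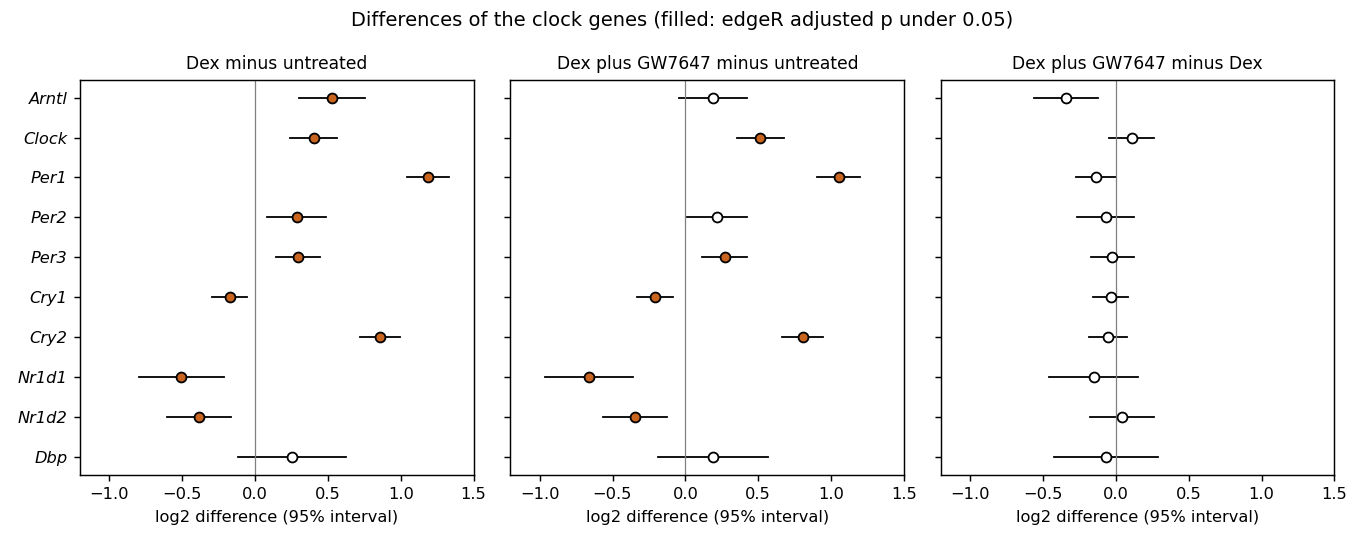
Log2 differences (horizontal axis) of the 10 clock genes in 3 comparisons, with 95% intervals. Filled points passed edgeR at an adjusted p of 0.05. Filled points number 9 for Dex against untreated, 7 for Dex plus GW7647 against untreated and 0 for Dex plus GW7647 against Dex.

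The next comparison asks what GW7647 adds to Dex, and in it 0 of the 10 clock genes were called with edgeR. Of all genes tested 9.73% were called, 2.15% higher and 7.58% lower. DESeq2 and limma-trend also called 0 of the 10, and 1 had an unadjusted p under 0.05. That gene was Arntl, with 392 and 445.4 normalized counts in Dex libraries and 344.8 and 314.2 with both drugs. The libraries with both drugs lay between those of Dex and those of untreated cells. The log2 difference was -0.34 ± 0.10 (95% interval -0.56 to -0.12, adjusted p = 0.0599). Arntl was called lower without Dex replicate 1 (log2 -0.43, adjusted p = 0.0381) and with no filter (0.0208), and over 13 alternatives the adjusted p ran from 0.0208 to 0.356. The median log2 difference was -0.06 over the clock genes and 0.00 over all genes tested.

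The intervals for GW7647 added to Dex rest on the spread between libraries, which may be technical, so they do not bound the difference between separate cultures. Clock had 1013 and 1104 normalized counts with Dex and 1111 and 1174 with both drugs, a log2 difference of 0.11 (95% interval -0.04 to 0.27). Per1 differed by -0.14 (-0.27 to 0.00), with libraries with both drugs below those with Dex alone. For Cry1 the interval was -0.15 to 0.09, for Cry2 -0.18 to 0.08, and for Per3 -0.17 to 0.12. Intervals were wider for Per2 (-0.26 to 0.13), Nr1d2 (-0.18 to 0.26), Nr1d1 (-0.46 to 0.15) and Dbp (-0.42 to 0.29). A 2-fold change lies outside each of these 9 intervals and outside that of Arntl. For the 9, smaller changes inside the intervals are not excluded. The intervals are per gene and not adjusted for the number of genes tested. That of Arntl did not reach 0, but Arntl was not called (edgeR adjusted p = 0.0599).

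With both drugs against untreated cells, 7 of the 10 were called, 4 higher and 3 lower. Of all genes, 49.7% were called, 24.7% higher and 25.1% lower. This comparison shares its untreated libraries with that of Dex, so they are not separate evidence. Per1 was 2.07-fold higher (log2 1.05 ± 0.07, adjusted p = 7.77e-07), Cry2 1.75-fold (0.81 ± 0.06, adjusted p = 3.59e-06), Clock 1.43-fold (0.51 ± 0.07, adjusted p = 0.000243) and Per3 1.21-fold (0.27 ± 0.07, adjusted p = 0.00826). Nr1d1 fell by 0.66, to 102.9 and 101.6 normalized counts, Nr1d2 fell by 0.34, to 321.3 and 281.1, and Cry1 fell by 0.21 (adjusted p = 0.00251, 0.0156 and 0.00951). Per2, at 596.6 and 600 normalized counts, was not called (log2 0.22 ± 0.09, adjusted p = 0.0733), nor was Arntl (0.19 ± 0.10, adjusted p = 0.16) or Dbp, at 158.9 and 121.6 (0.19 ± 0.17, adjusted p = 0.391). The median log2 difference was 0.20 over the clock genes and 0.02 over all genes tested.

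Several of these calls turn on a setting. With total count scaling the split was 6 higher and 1 lower: Per2 and Arntl were called higher (adjusted p = 0.00898 and 0.0272), and Cry1 and Nr1d2 lost their calls (0.18 and 0.0783). Per2 was also called without Dex replicate 1 (0.038) or 2 (0.0431), with no filter (0.0308) and on the 4 libraries compared (0.0458), within a range of 0.00898 to 0.325. Nr1d2 lost its call without untreated replicate 1 (0.0526) or 2 (0.0667), without replicate 2 of Dex plus GW7647 (0.133) and under DESeq2 (0.0506), within a range of 0.0114 to 0.133. Per3 lost it without untreated replicate 1 (0.057) or replicate 2 of Dex plus GW7647 (0.0621), within 0.000788 to 0.0621, and Cry1 without replicate 1 of Dex plus GW7647 (0.0965), within 0.00477 to 0.18. The adjusted p of Arntl ran from 0.0272 to 0.543. In the authors' deposited tables, 7 of the 10 had an adjusted p under 0.05 for both drugs over untreated, led by Per1 (ratio 2.07, adjusted p = 1.85e-31) and Cry2 (ratio 1.74, adjusted p = 4.58e-24), and 0 for Dex over Dex plus GW7647. The share over all genes was not counted there. The edgeR fit of the same libraries called 49.7% and 9.73% of all genes in these comparisons.

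Levels of different genes were compared as CPM per kilobase of exon, scaled by TMM, with exon lengths from GENCODE M21. In untreated cells the order was Cry1 at 9.52 ± 0.06, Per1 at 5.28 ± 0.36, Cry2 at 4.34 ± 0.12, Per2 at 2.02 ± 0.16, Nr1d2 at 1.64 ± 0.01, Per3 at 1.56 ± 0.07, Clock at 1.34 ± 0.08, Nr1d1 at 1.21 ± 0.04, Dbp at 0.957 ± 0.018 and Arntl at 0.886 ± 0.014 (SD, n = 2). Of these neighbours only Nr1d2 and Per3 lay closer than their summed SDs. The repressors Cry1, Per1 and Cry2 thus had the highest levels per length, and the activators Arntl and Clock were in the lower part of the order. With Dex, Per1 led at 12.0 ± 0.44, ahead of Cry1 at 8.43 ± 0.08 and Cry2 at 7.87 ± 0.42. Nr1d1 came last, at 0.851 ± 0.031, and Arntl rose to 1.28 ± 0.12, a level within the summed SDs of Nr1d2 at 1.25 ± 0.02. With both drugs the 4 highest were again Per1, Cry1, Cry2 and Per2, and Nr1d1 was again last, at 0.766 ± 0.007. The exon lengths join all annotated isoforms and run from 2993 bases for Dbp to 13727 for Clock, so a gene expressed from short isoforms has a higher level than this scale shows.

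**Figure D3:**
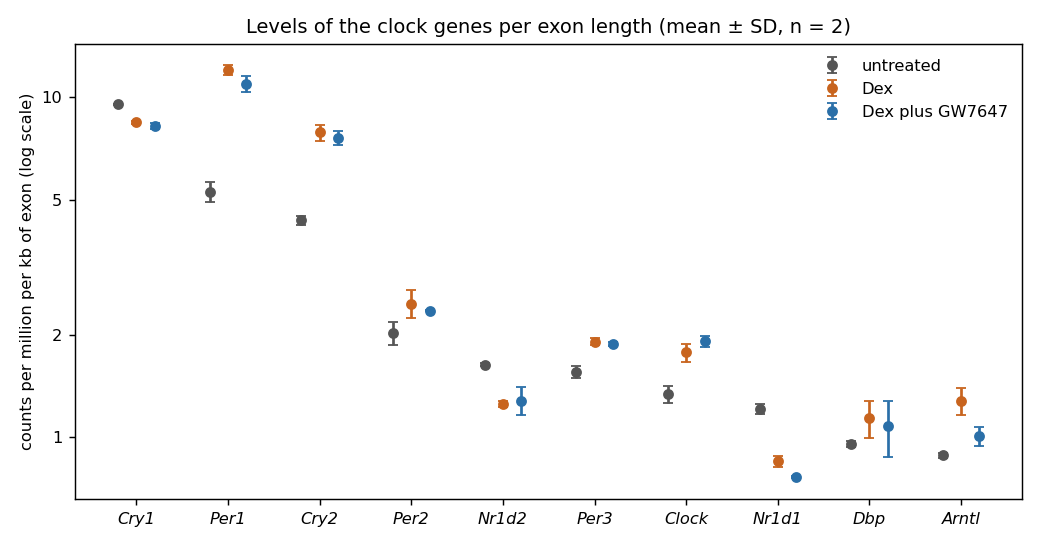
Level of each clock gene in CPM per kilobase of exon (vertical axis, log scale), as mean ± SD of 2 libraries for the 3 groups. Genes are ordered by their level in untreated cells, from Cry1 at 9.52 to Arntl at 0.886, and Per1 passes Cry1 in both treated groups.

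A wider list of 27 clock-linked genes was read from the same fit. With Dex, 24 were tested, of which 3 were higher, 9 lower and 12 not called, with a median log2 difference of -0.16. The 12 called of 24 lie near the 51.6% called over all genes. Total count scaling gave 5 higher and 6 lower. Among factors that share binding sites with DBP, Tef rose from 1326 and 1413 to 2151 and 2119 normalized counts (log2 0.64 ± 0.05, adjusted p = 5.13e-06). Nfil3, a repressor that opposes DBP at the D-box, fell from 138.1 and 170 to 81.79 and 88.14 (log2 -0.86 ± 0.16, adjusted p = 0.00115). Both held in 13 of 13 alternatives. Hlf, the third PAR bZIP gene, was lower too, at 34.23 and 25.44 normalized counts in untreated and 8.487 and 14.06 in Dex libraries (adjusted p = 0.01).

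Among genes whose products modify clock proteins, Gsk3b, a kinase acting on several of them, had 3861 and 3731 normalized counts in untreated and 3093 and 3179 in Dex libraries. The groups did not overlap, and Gsk3b fell by 0.28 on the log2 scale (adjusted p = 0.000773). Btrc, a ligase subunit for PER proteins, rose by 0.20 (adjusted p = 0.00531). Both calls held in 13 of 13 alternatives. Gsk3b was also lower with both drugs against untreated cells (edgeR adjusted p = 0.00128), whereas Btrc was not called there (log2 0.10, adjusted p = 0.118). Csnk1e, a kinase that phosphorylates PER, fell by 0.26 with Dex (adjusted p = 0.0165). The Csnk1e call was lost under total count scaling (adjusted p = 0.187) and without either untreated library (0.0589 and 0.0578 for replicates 1 and 2) or Dex replicate 2 (0.0549), within a range of 0.00164 to 0.187. Usp2, a deubiquitinase, was lower, at 45.23 and 39.31 normalized counts in untreated and 23.92 and 23.44 in Dex libraries (adjusted p = 0.0128). Hlf and Usp2 average below 50 normalized counts and were picked out after their values were seen. With both drugs against untreated cells neither was called (adjusted p = 0.0726 and 0.125).

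Noct, a rhythmic gene whose product acts on metabolism, had 26490 and 25400 normalized counts in untreated and 17340 and 19280 in Dex libraries. It fell by 0.50 (adjusted p = 4.68e-05) and held in 13 of 13 alternatives. Nampt, an enzyme of NAD synthesis under clock control, and Timeless fell by 0.22 and 0.19 (adjusted p = 0.0196 and 0.0221). Both were lost under total count scaling (0.27 and 0.408). Nampt was also lost without untreated replicate 1 (0.0881) or Dex replicate 1 (0.105), and Timeless without untreated replicate 2 (0.134) or Dex replicate 2 (0.0716). Their adjusted p ran from 0.000553 to 0.27 and from 0.00346 to 0.408. Bhlhe40 (DEC1), which represses through E-boxes, rose from 129.6 and 165.4 to 202.2 and 196.9 (log2 0.43 ± 0.14, adjusted p = 0.0223). That call was lost under DESeq2 (0.0778) and without untreated replicate 1 (0.171) or Dex replicate 1 (0.0653), within a range of 0.00421 to 0.171. Bhlhe41, Ciart, Arntl2, Npas2, Rora, Csnk1d, Csnk1a1, Csnk2a1, Fbxw11, Fbxw7, Sirt1 and Wee1 were not called with Dex. Rora, a receptor that activates Arntl, had 9.03 to 18.8 normalized counts per library. Rorb and Fbxl21 did not pass the filter, with at most 3.75 and 7.501 normalized counts in any library.

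With GW7647 added to Dex, 0 of the 24 were called by edgeR, DESeq2 or limma-trend, against 9.73% of all genes tested with edgeR. With no filter 1 was called, among 2085 genes called in all, and leaving out Dex replicate 2 also changed the count. Against untreated cells both drugs gave 3 higher and 8 lower (6 and 5 with total count scaling, 2 and 5 without replicate 1 of Dex plus GW7647), with a median of -0.16, against 49.7% called over all genes. Nfil3 fell by 1.11 and Noct fell by 0.58, and Tef rose by 0.63 and Bhlhe40 by 0.78 (adjusted p = 0.000336, 1.88e-05, 6.78e-06 and 0.000927). Bhlhe41, which averages below 50 normalized counts, was lower too. It had 14.67 and 12.72 in untreated libraries and 2.708 and 1.181 with both drugs (adjusted p = 0.00769). Ciart, a repressor of the activators, and Fbxw7, a ligase subunit, were called with both drugs against untreated (log2 0.37 and -0.24, adjusted p = 0.0471 and 0.0138). The Ciart call was lost in 11 of 13 alternatives (adjusted p from 0.0117 to 0.26), among them the fit without any 1 of the 6 libraries. Fbxw7 lost its call without untreated replicate 1 (0.0655), either library with both drugs (0.077 and 0.0825 without replicates 1 and 2) and under total count scaling (0.153), within a range of 0.00557 to 0.153. The alternatives for the wider list and the drug targets were chosen after seeing the data.

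**Figure D4:**
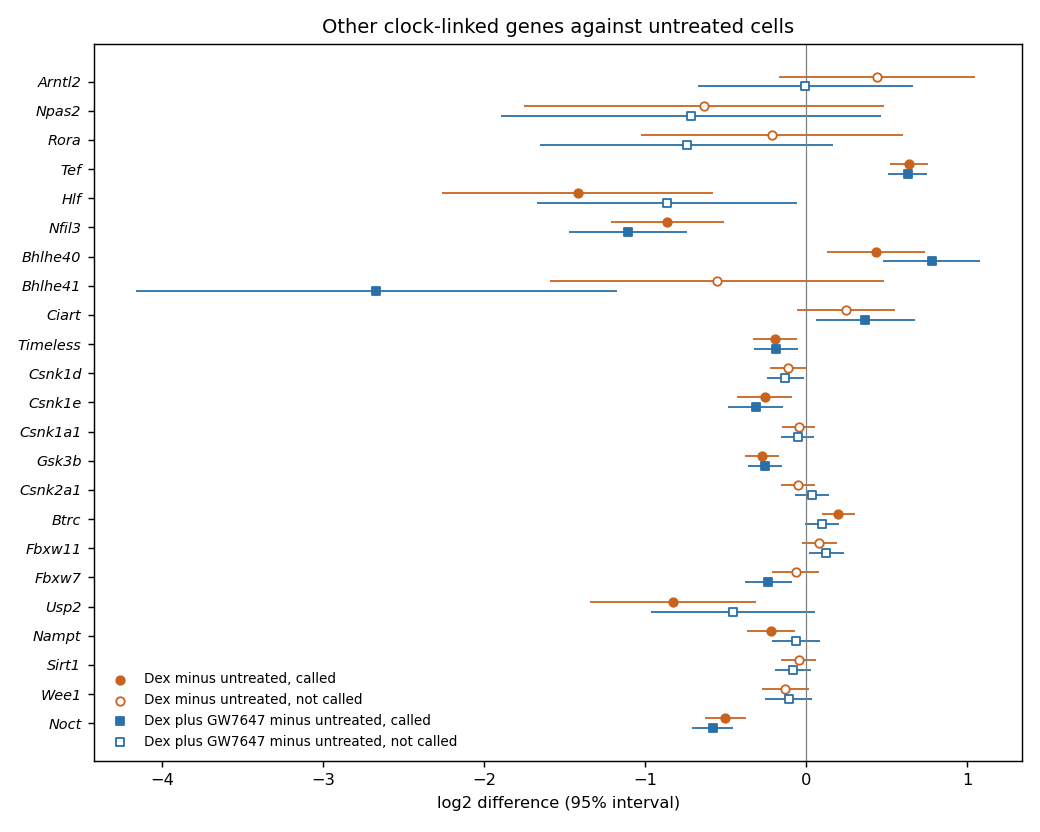
Log2 differences (horizontal axis, with 95% intervals) against untreated cells for tested genes of the wider clock list. Circles stand for Dex, squares for Dex plus GW7647, and filled symbols passed edgeR at an adjusted p of 0.05. Nfil3 and Noct lie to the left of 0 and Tef to the right in both comparisons.

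Patterns like those of 2 members were sought among 11267 other genes whose normalized counts averaged 50 or more. Over the 6 libraries the genes closest to Per1 were A230050P20Rik, Wsb2 and Agtpbp1, with Pearson correlations of log2 CPM of 0.9991, 0.9990 and 0.9987. Those closest to Nr1d1 were Abr (0.9994), Hbb-bt (0.9992), an adult beta globin gene, and H2afy (0.9988). A correlation over 0.99 was shared by 240 genes for Per1 and 170 for Nr1d1. The 6 points are 3 pairs of replicates from shared libraries, so the values describe likeness only.

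Markers of cell types and maturation moved in the same libraries. Of 10 erythroid progenitor markers, 2 were higher and 5 lower with Dex, with sums of 4882 to 4900 CPM in untreated, 3742 to 3761 in Dex and 3779 to 3794 in Dex plus GW7647 libraries. Tfrc, the marker with the most counts in that sum, encodes CD71, and the cells had been sorted for low CD71. It had 107800 and 102100 normalized counts in untreated and 63840 and 69370 in Dex libraries, so the sum does not stand for all progenitor markers. Kit and Gfi1b were the 2 that were higher. Kit went from 4270 and 4311 to 12680 and 12630, and Gfi1b from 6133 and 6441 to 7626 and 7445. Summed CPM of 10 erythroid maturation markers, of which 10 were lower with Dex, were 10810 to 10890 in untreated, 5370 to 5549 in Dex and 5608 to 5738 in Dex plus GW7647 libraries. Of 12 granulocyte and eosinophil markers, 10 were lower with Dex and 10 with GW7647 added, with sums of 362.9 to 385.6, 170.2 to 177.1 and 104.8 to 106.8 in the same order. Of 10 megakaryocyte markers, 8 were lower with Dex and 8 with GW7647 added, with sums of 897.4 to 954.6, 429.8 to 478.6 and 310 to 316.2. Mast cell and basophil markers (8 of 10 tested, 2 higher and 6 lower with Dex, 6 lower with GW7647 added) summed to 149.9 to 150.1, 226.9 to 234.7 and 131.7 to 133.8. Hdc, the histidine decarboxylase gene, carried the higher sum with Dex, at 1749 and 1748 normalized counts in untreated and 8879 and 8487 in Dex libraries. Granule protease genes went both ways with Dex. Cma1, Cpa3, Mcpt8 and Gzmb were lower (log2 -2.01, -2.07, -2.73 and -2.04), and Tpsb2 was higher (log2 0.59, edgeR adjusted p = 0.0128). Monocyte and macrophage markers summed to at most 10.2 in any library, with C1qa at 0 in each, and of the 4 tested 1 was higher and 2 lower with Dex. Hepatoblast markers were low but moved the other way, with 3 of 5 tested higher and 0 lower with Dex and sums of 2.96 to 3.33, 7.35 to 8.11 and 4.98 to 5.24 CPM. Apoa1, Afp and Hnf4a were the 3 that were higher (21.4-fold, 3.29-fold and 2.31-fold), and Serpina1a was at 0 in each library. The part of these shifts in the clock gene differences was not tested, and in such bulk libraries fewer cells of a type and less RNA per cell cannot be told apart.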

How the data were processed

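Gene expression was measured by polyA RNA sequencing in 6 libraries. Per the submitters' processing notes, TopHat 1.4.1, HTSeq and DESeq were used with builds mm9 and NCBIM37. The authors deposited whole-number read counts per Ensembl gene, the ratio of group means and an adjusted p-value per gene. Normalized columns (8) were left unused. Ensembl identifiers gave a symbol for 32897 of 37620 genes (87.45%, GENCODE M21). Positions from that later build are given only with RefSeq promoters (GRCm38.p6).

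Counts of all 6 libraries were fitted with edgeR 4.0.16 in R 4.3.3 (quasi-likelihood test, filterByExpr with a minimum count of 10, trimmed mean of M values, TMM), with Benjamini-Hochberg adjustment over 14125 genes and a threshold of 0.05. The fit was run on simulated counts in which few genes changed, equally in both directions. That setting does not test the scaling where many genes differ. Normalized counts are counts over TMM-scaled library size, times the mean size. SE is the log2 difference over the root of its F statistic. Alternatives were DESeq2 1.42.0, limma-trend (limma 3.58.1), 2 other scalings, no filter (genes with at least 1 count), the 4 libraries compared, the replicate number as a block, and each library left out. A list gene is described if called in any comparison and averaging 50 or more normalized counts, for at most 12 genes by smallest p with Dex, and the 3 genes most correlated with Per1 and with Nr1d1 are named. The members and lists were chosen with earlier results of these data known. Lists were not tested as sets. Counts and medians cover the whole wider list, and the values of some of its genes are not reported here.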

Additional observations from a re-analysis of the deposited data

How the results depend on the processing

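Over 13 alternatives, the counts of called clock genes were 6 to 9 for Dex against untreated and 5 to 8 for both drugs against untreated. Per1, Per3, Cry2, Arntl, Clock and Nr1d2 kept their calls with Dex in each. For GW7647 added to Dex, no filter gave 1 called clock gene and 2085 called genes in all, and leaving out 1 library gave 0 to 1 clock genes and 521 to 1720 genes (lowest without replicate 1 of Dex plus GW7647, 599 without its replicate 2, and highest without Dex replicate 2). In that comparison, uncalled log2 differences changed sign when 1 library was left out, ranging from -0.105 to 0.0043 for Cry2, -0.285 to 0.0997 for Dbp, -0.164 to 0.0377 for Per2, -0.0509 to 0.0102 for Per3, -0.0648 to 0.128 for Nr1d2 and -0.0440 to 0.0845 for Mt2. Against untreated, Dbp with both drugs ranged from -0.0302 to 0.3545. Under total count scaling Fbxw7 with Dex stood at 0.063 (from -0.0666) and Nampt with both drugs at 0.0539 (from -0.0657), all uncalled, and the cause was not tested.

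With the replicate number as a block, 9, 0 and 7 clock genes were called in the comparisons of Dex with untreated, of both drugs with Dex and of both drugs with untreated, the same numbers as without it, and 6824, 998 and 6523 genes in all. Deviations of same-numbered libraries from their group means correlated at -0.20, -0.04 and 0.13 between groups, so the numbers do not show a pairing. Among the genes named, the block ended the calls of Timeless and Ciart with both drugs against untreated (adjusted p = 0.0521 and 0.0666) and of Tsc22d3 with both drugs against Dex (0.0563, from 0.0214). With 2 libraries per group, small differences in genes of low count, such as Nr1d1 and Dbp, are the least certain.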
